A study of Danio rerio with 20 samples.

Results

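The nuclear-encoded oxidative phosphorylation genes described here are 87 zebrafish genes whose symbols begin with nduf, sdha, sdhb, sdhc, sdhd, uqcr, cox4, cox5, cox6, cox7, cox8 or atp5. They were taken by symbol from the row names of 1 plate and matched by gene identifier in all 20 plates, and they make up 87 of the 26651 gene identifiers in the files. By symbol, 36 of them are subunits of complex I, 4 of complex II, 7 of complex III, 13 of complex IV and 17 of complex V, and 10 are assembly factors. Subunits that the row names of that plate list by identifier alone are not among the 87.

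Oxidative phosphorylation takes place in the inner mitochondrial membrane. Complexes I (NADH dehydrogenase) and II (succinate dehydrogenase) pass electrons to complex III (the cytochrome bc1 complex), which hands them through cytochrome c to complex IV (cytochrome c oxidase) and oxygen, while complexes I, III and IV pump protons. Complex V, the ATP synthase, uses the proton gradient to make ATP, and assembly factors build the complexes without being part of them. A few core subunits of complexes I, III, IV and V are encoded in the mitochondrial genome, and the others, with all of complex II, in the nucleus. In mammals, quiescent hematopoietic stem cells are known for low mitochondrial respiration and high glycolysis, and respiration rises as they differentiate.

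The cells came from transgenic embryos in which the kdrl promoter drives mCherry in endothelium and the cd41 promoter drives eGFP in hematopoietic stem and progenitor cells (HSPCs) and thrombocytes. Tissue of many embryos of a group was pooled and dissociated, and cells with a kdrl and low cd41 signal were sorted into plates of 384 wells and sequenced with SORT-seq. In this method the 3' end of each transcript is counted once by a unique molecular identifier (UMI), so that counts need no correction for transcript length. Differences between genes in capture or mapping were not corrected. Ranks of genes below are therefore ranks of counted UMIs. The study asked how phosphatidylinositol-3 kinase (PI3K) signaling acts on HSPCs, and LY294002 is an inhibitor of PI3K.

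The aorta-gonad-mesonephros (AGM), where HSPCs leave the wall of the aorta by endothelial to hematopoietic transition (EHT), was dissected at 36 h postfertilization (hpf). It gave 5 plates of LY294002-treated embryos (L1 to L5), 4 plates of control embryos labelled as wild type (C1 to C4) and 3 plates that hold both treatments (X1 to X3). Wells of the plates with both treatments were not assigned to a treatment here, and these plates entered only the comparisons between cell classes. The caudal hematopoietic tissue (CHT), which HSPCs colonize next, was dissected at 5 days postfertilization (dpf). It gave 2 plates each of LY294002-treated embryos (V1 and V2) and wild-type control embryos (W1 and W2). The other 4 plates of the series, also of the CHT, entered only the facts and levels given over all 20 plates. Nothing in the labels says that plates of a group came from separate clutches, so the p-values below measure the spread between plates, which may be technical. The study describes tissue pooled per group before sorting, for the AGM as for the CHT. In the AGM, C1 and C2 share a sort day, as do L1 and L2, and L3 and L5. Such AGM plates may be splits of a pool, so they cannot be taken as separate samples of embryos. In the CHT, V1, V2, W1 and W2 share a sort day. By that account the plates of each of these CHT groups are splits of a pool, not separate samples of embryos.

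Of 7680 wells, 6116 held at least 1500 UMIs, and 24 of these wells, in which muscle markers took more than 5% of UMIs, were left out. Plates held between 1837137 and 8298215 UMIs of genes, and spike-in RNA took between 1.43% and 11.17% of gene and spike-in UMIs together. The CHT plates of LY294002-treated embryos were the shallower ones of their comparison, with a median of 6554 and 6313 UMIs per cell on V1 and V2, against 8274 and 9438 on W1 and W2. Levels are given in CPM, a gene's share of all UMIs scaled to the same total in every plate. Fold changes are given as log2 values from edgeR's quasi-likelihood test on UMIs summed per plate and cell class, with p-values adjusted over all genes tested.

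The 87 genes together took 1.472% of all UMIs, and each of them was detected in at least 1 cell. A small set carried most of this signal: the 12 highest genes held 52.21% of the members' UMIs and the 30 highest held 77.7%. At the other end, 13 genes averaged below 10 CPM over the 20 plates, the median gene averaged 93.4 CPM, and 84 of the 87 had UMIs on every plate. The 12 highest genes all belonged to complexes V and IV, as the plot of levels over the 20 plates shows.

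**Figure D1:**
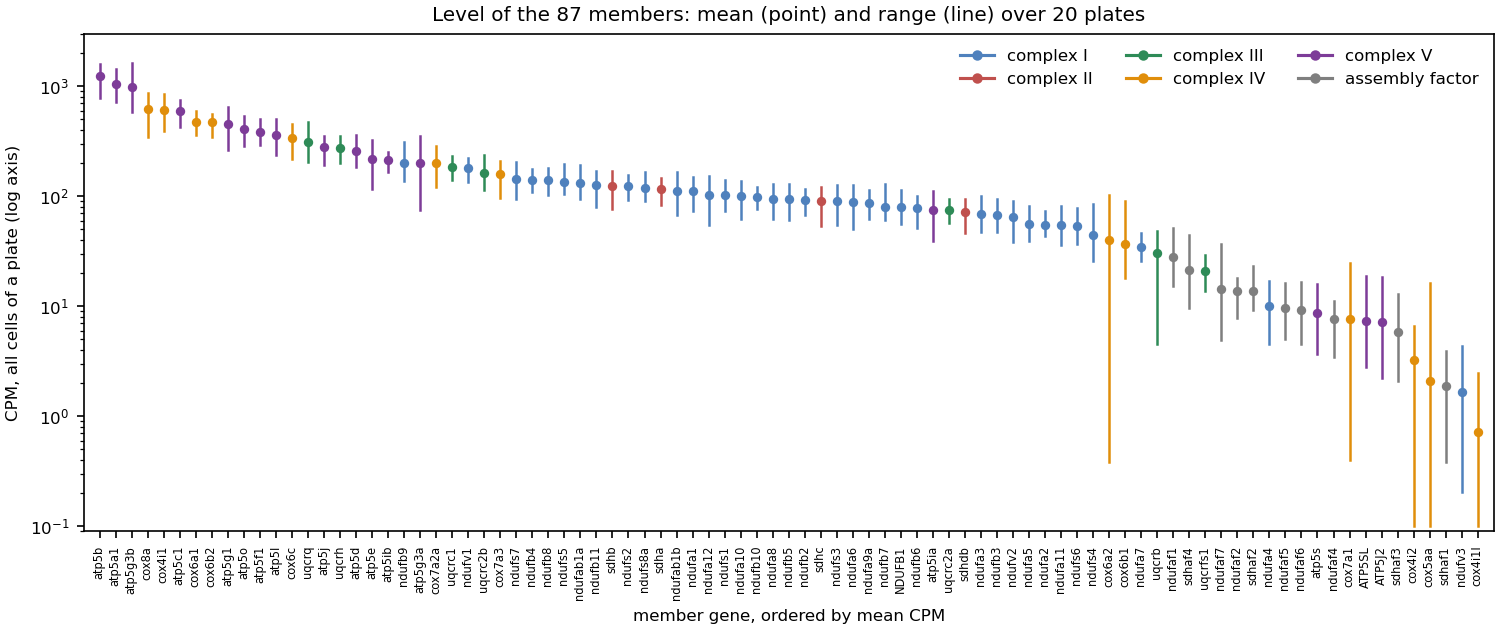
Level of each of the 87 genes in all cells, in CPM on a log axis, ordered by mean and colored by complex; points are means over the 20 plates and lines span the lowest to the highest plate, cut at 0.1 CPM where a plate had none. The 3 highest genes belong to complex V (atp5b leads at 1228 CPM), complex I genes fill most of the middle of the order, and cox6a2 (0.382 to 102.2 CPM) and cox7a1 (0.3962 to 24.91 CPM) span wide ranges.

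Within complex I, ndufb9 was the highest gene at 201.6 CPM and ndufv1, the flavoprotein that binds NADH, followed at 180 CPM. The lowest complex I gene was ndufv3 at 1.659 CPM. Succinate dehydrogenase was even across its subunits: sdhb, which carries iron-sulfur clusters, averaged 124.6 CPM, the flavoprotein sdha 115.7 CPM, and the membrane anchors sdhc and sdhdb 91.36 and 71.24 CPM. In complex III the small subunit uqcrq (311.5 CPM) and the hinge protein uqcrh (274.8 CPM) led, and the Rieske iron-sulfur protein uqcrfs1 was the lowest at 20.82 CPM.

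In complex IV, cox8a (617.7 CPM) and cox4i1 (604 CPM) were highest, followed by cox6a1 (475.3 CPM), cox6b2 (470.5 CPM) and cox6c (337.9 CPM). Complex V held the 3 highest genes of the whole list. These were the catalytic subunit atp5b (1228 CPM, range over plates 774.6 to 1576), the subunit atp5a1 (1049 CPM) and the c-ring gene atp5g3b (981.9 CPM, range 577.6 to 1610). The gamma subunit atp5c1 (593.6 CPM), the c-ring gene atp5g1 (451.3 CPM), the stalk subunits atp5o (406.7 CPM) and atp5f1 (384.7 CPM) and the membrane subunit atp5l (357.1 CPM) were, with atp5b, atp5a1, atp5g3b and the first 4 genes named for complex IV, the 12 highest genes. Of the low genes with atp5 symbols, atp5s (8.655 CPM) and ATP5SL (7.26 CPM) have mammalian counterparts that are not subunits of the enzyme. Assembly factors were low, between 1.868 CPM for sdhaf1 and 28.14 CPM for ndufaf1.

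Cells were clustered without the 87 genes and without the mitochondrially encoded genes, and clusters were named from blood and endothelial markers. In the AGM this gave 1300 HSPC-like, 1056 neutrophil-like, 641 monocyte-like and 365 EHT-like cells, with 348 cells in an unnamed cluster led by skin keratins and globins. The EHT-like cells raised all 12 EHT markers, and their median UMI count was 0.59 times that of the AGM cells. The LY294002 and control plates of the CHT gave 424 cells of an erythrocyte-like class, 273 of a myeloid-like one and 258 of an HSPC-like one. The myeloid-like class entered no comparison. No cluster there was named for thrombocyte and erythrocyte progenitors, which the study reports as underrepresented with LY294002, while HSPCs were overrepresented. The part of such a change in cell make-up in the LY294002 differences within CHT classes was not tested. The genes that led the CHT HSPC-like cluster by fold included the collagens col2a1a and col9a1b beside the HSPC markers her6 and myb, and the erythrocyte marker rhag. Its score for thrombocyte and erythrocyte progenitor markers, the mean log2 difference of the markers from the other CHT clusters, was 0.46, beside 0.58 for HSPC markers. Bulk-like sums over a class cannot tell fewer transcripts of a gene per cell from a lower share of cells that make it.

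EHT-like cells had the lowest share of UMIs from the 87 genes. The members took 0.914 ± 0.147% of UMIs in EHT-like cells, against 1.689 ± 0.119% in HSPC-like cells of the same plates (SD, n = 6 plates), and the share was lower on 6 of 6 plates. Neutrophil-like cells held 1.161 ± 0.0863%, against 1.684 ± 0.15% in HSPC-like cells (SD, n = 11 plates), and were lower on 11 of 11 plates. Monocyte-like cells stood nearer, with 1.559 ± 0.2% against 1.71 ± 0.146% in HSPC-like cells (SD, n = 11 plates), and were lower on 10 of 11 plates. In the CHT, erythrocyte-like cells were lower than HSPC-like cells on 4 of 4 LY294002 and control plates, with a mean difference of -0.129 percentage points. The difference was -0.02175 points with globins left out of the total, -0.2302 with the mitochondrially encoded genes left out, and 0.01925 as a mean over single cells. These shares are sums over chosen genes and are given as descriptions, with no test.

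**Figure D2:**
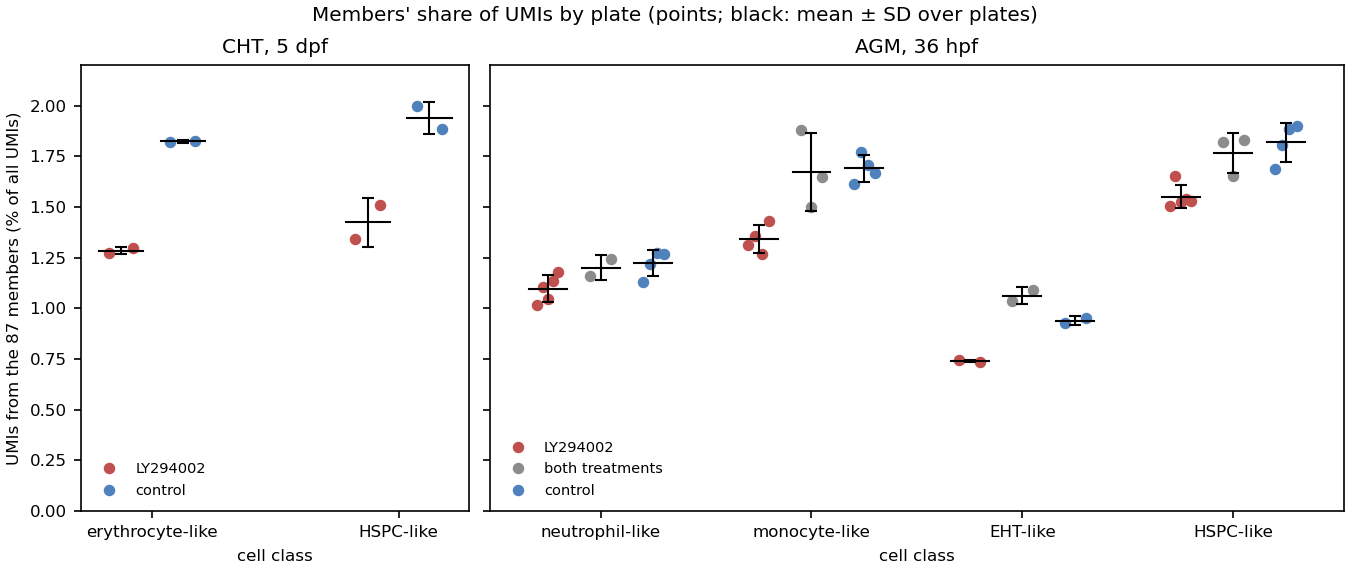
Share of all UMIs (percent, y axis) that come from the 87 genes, by cell class and group; each point is a plate with at least 20 cells of the class, and black bars are the mean and SD over plates. In the AGM the EHT-like plates include the lowest values (0.7365% on L2). In the erythrocyte-like and HSPC-like cells of the CHT the LY294002 plates lie below the control plates, and the myeloid-like class of the CHT is not shown.

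The low share of EHT-like cells was spread over all complexes. Complex I took 57.83% of its share in HSPC-like cells, complex II 59.35%, complex III 53.54%, complex IV 53.4% and complex V 52.74%. Of the 79 members that passed the low-count filter, 67 were lower and 1 was higher in EHT-like cells. The percentage of all genes called in this comparison was 50.2, with 25.6 lower and 24.5 higher, and the median log2 fold change was -0.98 over the members tested, against -0.01 over all genes tested (-0.85 and 0.11 with total UMIs as the scale). The calls covered 30 of 34 complex I genes, 4 of 4 of complex II, 6 of 7 of complex III, 9 of 10 of complex IV, 13 of 16 of complex V and 5 of 8 assembly factors. The CPM of the plates did not overlap in 45 members, all lower, against 13.1% of all genes not overlapping and lower and 13.3% not overlapping and higher.

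The catalytic subunit atp5b had 686.4, 797.8, 458.2, 633.2, 972.7 and 786.6 CPM in the EHT-like cells of C1, C2, L1, L2, X2 and X3. In the HSPC-like cells of the same plates, in the same order, it had 1580, 1820, 1162, 1524, 1501 and 1712 CPM. The classes did not overlap, and the log2 fold change was -1.26 (SE 0.13, adjusted p = 6.05e-07, edgeR). The largest fall was that of cox6b1, a subunit on the intermembrane face of complex IV, which lay between 4.25 and 17.78 CPM in EHT-like cells, against 71.03 to 122.1 CPM in HSPC-like cells (log2 fold change -3.66, SE 0.3, adjusted p = 4.17e-08, edgeR). Other named genes that fell were cox6a2 (-2.51), the complex I assembly factor ndufaf5 (-1.99), cox7a3 (-1.95) and the complex II assembly factor sdhaf2 (-1.95).

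The exception was cox4i2, whose mammalian counterpart is the isoform of cox4 that is induced by low oxygen. It had 15.14, 8.889, 5.207, 8.5, 17.66 and 25.79 CPM in EHT-like cells of C1, C2, L1, L2, X2 and X3, and 8.072, 0.9334, 2.655, 1.735, 5.218 and 0 CPM in HSPC-like cells of those plates. The value was higher in EHT-like cells on 6 of 6 plates while the ranges overlapped, and the log2 fold change was 2.05 (SE 0.665, adjusted p = 0.0168, edgeR). The level was low throughout and rested on few UMIs, as the smallest sum in this comparison held 155100 UMIs over all genes. Whether the call of cox4i2 lasts without a plate is not reported here. In every class and plate, cox4i1 held at least 93.2% of cox4 UMIs.

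Most calls in the other lists were also lower in EHT-like cells. Of 25 assembly factors outside the list, 20 were lower and 0 higher, as were 11 of 17 genes of the tricarboxylic acid (TCA) cycle with 1 higher, and 9 of 16 glycolytic genes with 1 higher. Of 7 genes for cytochrome c, carriers and channels, 5 were lower, among them cytochrome c (cycsb, -2.02), and 1 was higher: the outer membrane channel vdac3 had 247.3 to 444.9 CPM in EHT-like cells, against 57.51 to 129.2 CPM in HSPC-like cells (log2 fold change 1.86, adjusted p = 7.39e-08, edgeR). The mitochondrial transcription factor tfb2m fell (-3.20). Of the 13 mitochondrially encoded genes with mt- symbols 10 were lower, and of the 2 other rows counted as mitochondrially encoded, AC024175.4, a mitochondrial ribosomal gene, and AC024175.17, 0 were called. The lower UMI count of EHT-like cells moved with these results, and its part in them was not tested.

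Neutrophil-like cells differed from HSPC-like cells in both directions. Of 82 members that passed the filter, 15 were higher and 23 lower in neutrophil-like cells. The percentage of all genes called was 64.4 (30.7 higher and 33.7 lower), and the median log2 fold change was -0.06 over the members tested, against -0.12 over all genes tested. The split depends on the scale: with total UMIs as the scale, 6 members were higher and 67 lower, and the median of all genes moved by about the same amount as that of the members, to -0.64 and -0.62. With DESeq2, 13 were higher and 38 lower. There was no overlap between plates in 1 higher and 22 lower members, against 7.86% and 13.2% of all genes.

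The gene that rose most was cox6a2, whose mammalian counterpart is the heart and skeletal muscle isoform of cox6a. In neutrophil-like cells its lowest, median and highest plates had 93.85, 163.7 and 220.8 CPM, against 13.4, 29.41 and 37.28 CPM in AGM HSPC-like cells. The ranges were far apart (log2 fold change 3.00, SE 0.114, adjusted p = 9.35e-16, edgeR, higher on 11 of 11 plates), and the gene stayed higher under every scale run. It made up a median of 28.4% of cox6a UMIs (range 21.5 to 36.5%) in neutrophil-like cells, against 4.52% (2.61 to 6.91%) in AGM HSPC-like cells.

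The opposite held for cox6b1, with 3.145, 8.854 and 18.76 CPM on the lowest, median and highest neutrophil-like plates, against 58.41, 83.53 and 141.6 CPM on AGM HSPC-like plates (log2 fold change -2.65, SE 0.168, adjusted p = 6.12e-12, edgeR). Its partner cox6b2 held the rest of the cox6b UMIs, so that cox6b1 made up a median of 2.26% of them in the neutrophil-like class, 2.2% in the monocyte-like class and 1.6% in EHT-like cells, against 12.7% in AGM HSPC-like cells. The plot of 4 paralogous subunits shows these levels plate by plate.

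**Figure D3:**
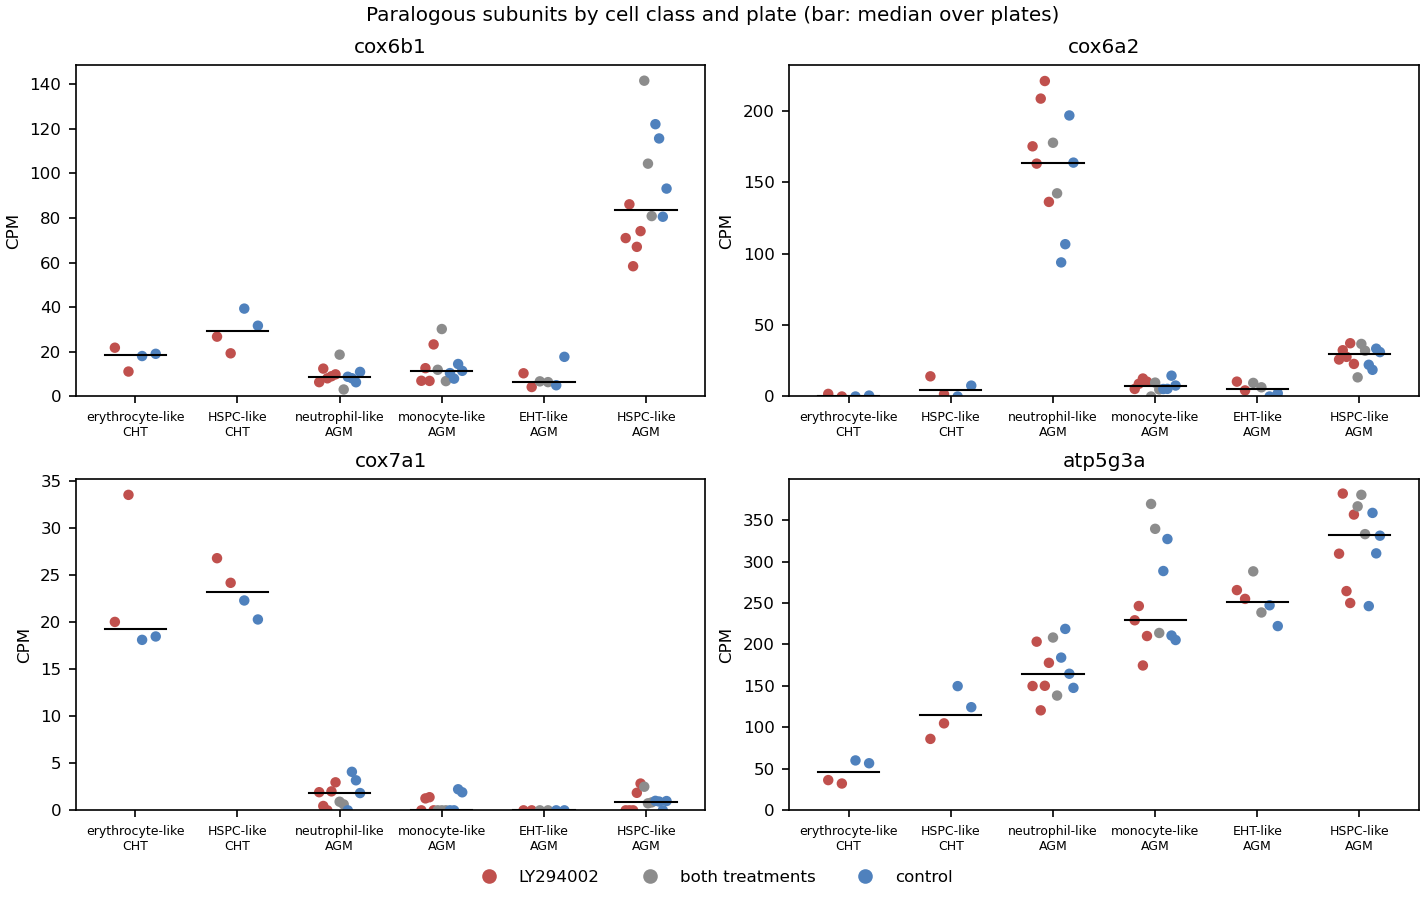
CPM of cox6b1, cox6a2, cox7a1 and atp5g3a (y axes) by cell class; each point is a plate with at least 20 cells of the class, colored by group, and bars are medians over plates. Among the classes shown, the plates of cox6b1 are highest in AGM HSPC-like cells (58.41 to 141.6 CPM) and those of cox6a2 in neutrophil-like cells (93.85 to 220.8 CPM). Those of cox7a1 are highest in the HSPC-like and erythrocyte-like cells of the CHT (18.14 to 33.57 CPM), and the myeloid-like class of the CHT is not shown.

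Other genes that passed the test and did not overlap between plates were, on the low side in neutrophil-like cells, the complex II assembly factor sdhaf3 (-2.44), the complex I subunit ndufa3 (-0.70), the acyl carrier protein ndufab1a (-0.67) and cox7a3 (-0.47). Genes called higher with overlapping plates, named after their values were seen, included ndufa4 (1.93), a subunit assigned to complex IV in mammals, the complex II assembly factor sdhaf4 (1.82), cox7a2a (0.79) and cox8a (0.70), and all of these had a positive log2 fold change under each scale run. Glycolytic genes contrasted with the list: 10 of 16 were higher and 1 lower, with glucose-6-phosphate isomerase (gpia) at 3.17 and aldolase C (aldocb) at 2.77. Of 7 genes of mitochondrial biogenesis, 5 were lower and 0 higher, among them the coactivator pprc1 (-2.80) and the mitochondrial transcription factor tfam (-1.33). Of 13 mt- genes, 5 were higher and 0 lower, against 30.7% and 33.7% of all genes, and their median log2 fold change was 0.11. Both AC024175 rows were higher. The counts of these lists in neutrophil-like cells were not taken with total UMIs as the scale.

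Monocyte-like cells had more members higher than lower. Of 81 members that passed the filter, 30 were higher and 11 lower in monocyte-like cells. The percentage of all genes called was 72.6 (31.0 higher and 41.6 lower), and the median log2 fold change was 0.11 over the members tested, against -0.27 over all genes tested. With total UMIs as the scale, 12 members were higher and 34 lower, and both medians moved down together, to -0.14 and -0.52. Groups of plates were apart in 0 higher members and 1 lower member, against 9.84% and 13.6% of all genes.

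In complex II 4 of 4 genes were higher in monocyte-like cells. The share of complex II in UMIs was 133.0% of that in HSPC-like cells, while that of complex V was 84.96%. The log2 fold changes were 0.91 for sdhb, 0.65 for sdha, 0.64 for sdhc and 0.33 for sdhdb; the first 3 stayed called with total UMIs as the scale, and sdhdb, higher in CPM on 5 of 11 plates, did not. Complex I had 14 genes higher and 1 lower of 35, complex III 4 higher of 7, among them uqcrfs1 (1.06), and complex V 4 higher and 5 lower of 17. The only named gene without overlap was cox6b1, which fell to between 6.9 and 30.25 CPM in monocyte-like cells, against 58.41 to 141.6 CPM in HSPC-like cells (-2.60, adjusted p = 5.33e-10, edgeR).

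The surrounding pathways moved as well in monocyte-like cells. Of 17 TCA cycle genes, 12 were higher and 3 lower, against 31.0% and 41.6% of all genes. The succinyl-CoA ligase subunits sucla2 (2.47) and suclg1 (2.39) were in front. Of 15 glycolytic genes, 12 were higher and 1 lower. Assembly factors outside the list ran the other way, with 2 higher and 15 lower of 26, and all 5 genes of mitochondrial biogenesis that were tested were lower. The counts of these lists were not taken with total UMIs as the scale.

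In the CHT, erythrocyte-like and HSPC-like cells differed in few members. On the LY294002 and control plates 3 members were higher and 5 lower of 79 tested in erythrocyte-like cells, and DESeq2 called 1. The percentage of all genes called was 31.2, with 14.3 higher and 16.9 lower. Plates did not overlap in 0 higher and 2 lower members, against 8.15% and 13.7% of all genes. The c-ring gene atp5g3a fell to 36.46 and 32.33 CPM in the erythrocyte-like cells of V1 and V2 and to 60.18 and 56.79 CPM in those of W1 and W2. In the HSPC-like cells of V1, V2, W1 and W2 it had 86.14, 104.9, 149.7 and 124.4 CPM. No erythrocyte-like plate reached the HSPC-like range (log2 fold change -1.21, SE 0.16, adjusted p = 1.26e-06, edgeR). The complex II anchor sdhdb had 47.4, 41.03, 60.18 and 63.81 CPM in the erythrocyte-like cells of V1, V2, W1 and W2, against 77.66, 67.78, 94.57 and 87.61 CPM in HSPC-like cells (-0.51, adjusted p = 0.0176, edgeR). Its call was lost without W1, with DESeq2, with no low-count filter and with at least 3000 UMIs per cell.

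Control HSPC-like cells of the CHT at 5 dpf were next set against those of the AGM at 36 hpf. Stage, tissue and sort day cannot be told apart in this comparison. The AGM and CHT classes also came from separate clusterings, so their cell make-up may differ. The members' share was 1.942 ± 0.0785% in the CHT (n = 2 plates) and 1.82 ± 0.0966% in the AGM (SD, n = 4 plates), and the plates overlapped. As a mean over single cells the difference turned to -0.0315 points. Single genes differed more: of 83 members that passed the filter, 30 were higher and 3 lower in the CHT, where 26.7% of all genes were called (13.2 higher and 13.5 lower). The median log2 fold change was 0.50 over the members tested, against -0.02 over all genes tested. With total UMIs as the scale both medians dropped by nearly the same amount, to 0.14 and -0.37, and 4 members were called higher and 5 lower. There was no overlap between plates in 27 higher and 12 lower members, against 15.3% and 36.3% of all genes. DESeq2 called 17 higher and 3 lower, and the count fell to 7 without W1 and to 4 without W2.

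The higher members came mainly from complexes V (11 of 17, with 1 lower), I (13 of 34) and III (3 of 7), while complex IV was divided, with 2 higher and 2 lower of 12. The genes of the c subunit of complex V moved in different directions. The gene atp5g1 had 622.6 and 693.3 CPM in the CHT, against 363.2, 423.8, 477.5 and 502.6 CPM in the AGM (log2 fold change 0.93, adjusted p = 0.00331, edgeR), whereas atp5g3a had 149.7 and 124.4 CPM in the CHT, against 246.2, 358.9, 310.2 and 331.4 CPM in the AGM (-0.84, adjusted p = 0.00897, edgeR). The groups overlapped for neither gene. The call of atp5g1 was lost without W2, and that of atp5g3a without W1, without W2 or with muscle wells kept.

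The electron-transfer complexes gave further calls. The flavoprotein sdha had 201 and 165.1 CPM in the CHT, against 94.84, 111.1, 134.8 and 136.1 CPM in the AGM (0.96, adjusted p = 0.00424, edgeR), and uqcrq had 505.7 and 481.2 CPM, against 316.8, 219.3, 408.7 and 376.3 CPM (0.93, adjusted p = 0.0161, edgeR). The Rieske protein uqcrfs1 was also higher (1.13, adjusted p = 0.0206, edgeR). The CHT plates were above every AGM plate for all 3 genes, while sdha was not called without W1, and uqcrq and uqcrfs1 were called neither without W1 nor without W2. With total UMIs as the scale neither uqcrq nor uqcrfs1 was called, and uqcrfs1 was also lost with DESeq2 and with no low-count filter.

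In complex IV, cox7a1, the heart and skeletal muscle isoform in mammals, was near 0 in the AGM. It had 22.33 and 20.32 CPM in CHT control HSPC-like cells, against 1.009, 0.9334, 0 and 0.9864 CPM in the AGM (log2 fold change 5.12, SE 0.726, adjusted p = 0.00127, edgeR). These levels rest on 33 UMIs in the CHT and 5 in the AGM, a ratio of 31.03 with a 95% interval of 12.0 to 102 from counting error alone, and it was called under every alternative run. Muscle markers took 0.1111 to 0.4042% of UMIs in the CHT control plates, against 0.00336 to 0.01486% in the AGM control plates. On the LY294002-treated CHT plates V1 and V2 they took 0.07102 and 0.008068%, and cox7a1 stood at 26.83 and 24.21 CPM. In erythrocyte-like cells of the CHT control and LY294002 plates, cox7a1 lay between 18.14 and 33.57 CPM. In the myeloid-like cells of W1, W2, V1 and V2 it had 10.97, 3.718, 18.2 and 4.117 CPM. The part of muscle RNA or of erythroid cells in these levels was not tested.

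The other isoforms went down. cox6b1 had 39.41 and 31.74 CPM in the CHT, against 122.1, 115.7, 80.61 and 93.22 CPM in the AGM (-1.18, adjusted p = 0.0102, edgeR), and cox6a2 had 0 and 7.618 CPM, against 22.2, 18.67, 33.47 and 31.07 CPM (-2.39, adjusted p = 0.0404, edgeR). Neither gene overlapped between the tissues, and cox6b1 was not called without W1 or without W2. The call of cox6a2 was lost without W1, C3 or C4 and with at least 3000 UMIs per cell. Outside the list, 9 of 15 glycolytic genes were lower in the CHT and 0 higher, among them the phosphofructokinase gene pfkpa (-3.01) and hexokinase hk1 (-2.06), while 5 of 16 TCA cycle genes were higher and 0 lower, among them fumarate hydratase (fh, 1.74) and suclg2 (1.63). Of the 13 mt- genes 5 were higher, as were both AC024175 rows.

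With LY294002 in the AGM, the members' share of UMIs averaged lower in each class, and no single member passed the edgeR test. In HSPC-like cells the share was 1.503, 1.652, 1.527, 1.542 and 1.532% on L1 to L5, against 1.689, 1.805, 1.886 and 1.899% on C1 to C4. Every treated plate lay below every control plate, and the means differed by -0.2686 percentage points, or 85.24% of the control share. The difference was -0.1695 points among plates sorted on days 1 to 4 and -0.3588 points among those of days 10 to 12. In the first period the treated plates came from day 4 and the control plates from day 1, and in the second the treated plates came from days 11 to 12 and the control plates from days 10 to 11, so that treatment and sort day cannot be told apart. Complex II stood at 76.44% of its control share, complex III at 81.26%, complex V at 82.9%, complex IV at 88.05% and complex I at 89.85%. The plates held unequal numbers of HSPC-like cells: 149, 142, 70, 62 and 25 on L1 to L5, and 82, 159, 143 and 143 on C1 to C4. L4 was also shallow, with a median of 5575 UMIs per cell over all classes, against 9289 to 13444 on the control plates.

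Of 80 members that passed the filter in these cells, 0 were called by edgeR, with 14 at an unadjusted p under 0.05, and DESeq2 called 1 with 16. For counts at an unadjusted p, here and below, the share of all genes at that threshold is not given. Whether they exceed that share therefore cannot be told, and the percentages of all genes called are at adjusted p. The percentage of all genes called was 0.0389 (0.0291 higher and 0.00971 lower). Groups of plates were apart in 0 higher and 5 lower members, against 1.48% and 1.83% of all genes. The log2 fold change was negative in 68 members and positive in 12, with a median of -0.17, against 0.02 over all genes tested. The gene with the lowest p was atp5b, with 1162, 1524, 1145, 1286 and 1072 CPM on L1 to L5, against 1580, 1820, 1864 and 1738 CPM on C1 to C4. No treated plate reached the control plates, yet the adjusted p was 0.176 (log2 fold change -0.50, SE 0.126, edgeR). The complex III core protein uqcrc2a also did not overlap, with 74.35, 65.35, 61.33, 63.38 and 68.44 CPM, against 100.9, 92.4, 107 and 94.21 CPM in controls (-0.56, adjusted p = 0.198, edgeR). In contrast, atp5g1 averaged 446.8 ± 42 CPM in treated plates and 441.8 ± 61.8 CPM in control plates (SD, n = 5 and 4), with a log2 fold change of -0.01.

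The mitochondrially encoded genes took a larger share of UMIs in the same treated cells, 9.878 ± 2.64% against 6.118 ± 0.763% in controls (SD, n = 5 and 4), with overlap. The 13 mt- genes took 4.053 ± 0.51% in treated and 4.142 ± 0.553% in control plates, and 0 of them were called, while AC024175.4 and AC024175.17 together took 5.825 ± 2.52% and 1.977 ± 1.19%. Of these rows AC024175.17 was called higher, with 1924, 811.4, 1874, 855.6 and 1372 CPM on L1 to L5, against 479.3, 294.5, 214.5 and 258.4 CPM on C1 to C4 (log2 fold change 2.21, adjusted p = 0.0146, edgeR). With all 15 left out of the total, the difference in the members' share was -0.2157 points. On 1 treated plate, L4, muscle markers took 0.749% of UMIs, against at most 0.01486% on the control plates. The members' share on L4 was 1.542%, and the part of muscle RNA in it was not tested.

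In monocyte-like cells the members' share was 1.311, 1.357, 1.267 and 1.432% on L1 to L4, against 1.614, 1.773, 1.708 and 1.669% on C1 to C4, and L5 held too few of these cells. The plates did not overlap, the difference was -0.3492 points (79.35% of the control share), and it was -0.3595 points among plates of days 1 to 4 and -0.339 points among those of days 10 to 12. With the 87 and the mitochondrially encoded genes allowed into the clustering, it was -0.1712 points. The AGM clustering then used 1077 variable genes, against 1071 without them. Of 70 members tested, edgeR called 0 with 6 at an unadjusted p under 0.05, DESeq2 called 0 with 4, and 0.107% of all genes were called (0.0767% higher and 0.0307% lower). Plates did not overlap in 0 higher and 16 lower members, against 1.64% and 4.65% of all genes. The log2 fold change was negative in 61 members, with a median of -0.19, against 0.02 over all genes tested. The catalytic subunit atp5b had 899, 1023, 787 and 947 CPM in treated plates, against 1212, 1625, 1542 and 1297 CPM in control plates (-0.52, adjusted p = 0.222, edgeR), whereas cox8a, at 757.9 ± 75.5 CPM in treated and 825.2 ± 82.6 CPM in control plates (SD, n = 4 each), had a log2 fold change of -0.00.

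In neutrophil-like cells the shares overlapped, with 1.014 to 1.181% on the 5 treated plates and 1.132 to 1.274% on the 4 control plates, a difference of -0.1273 points. Of 75 members tested, edgeR called 0 with 3 at an unadjusted p under 0.05, DESeq2 called 0 with 2, and 0.0267% of all genes were called, all higher. There was no overlap between plates in 0 higher members and 1 lower member, against 0.813% and 1.73% of all genes. The median log2 fold change was -0.08, against 0.00 over all genes tested. EHT-like cells reached 20 cells on only 2 plates of each treatment, and there the share was 0.7425 and 0.7365% on L1 and L2, against 0.9251 and 0.9537% on C1 and C2.

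**Figure D4:**
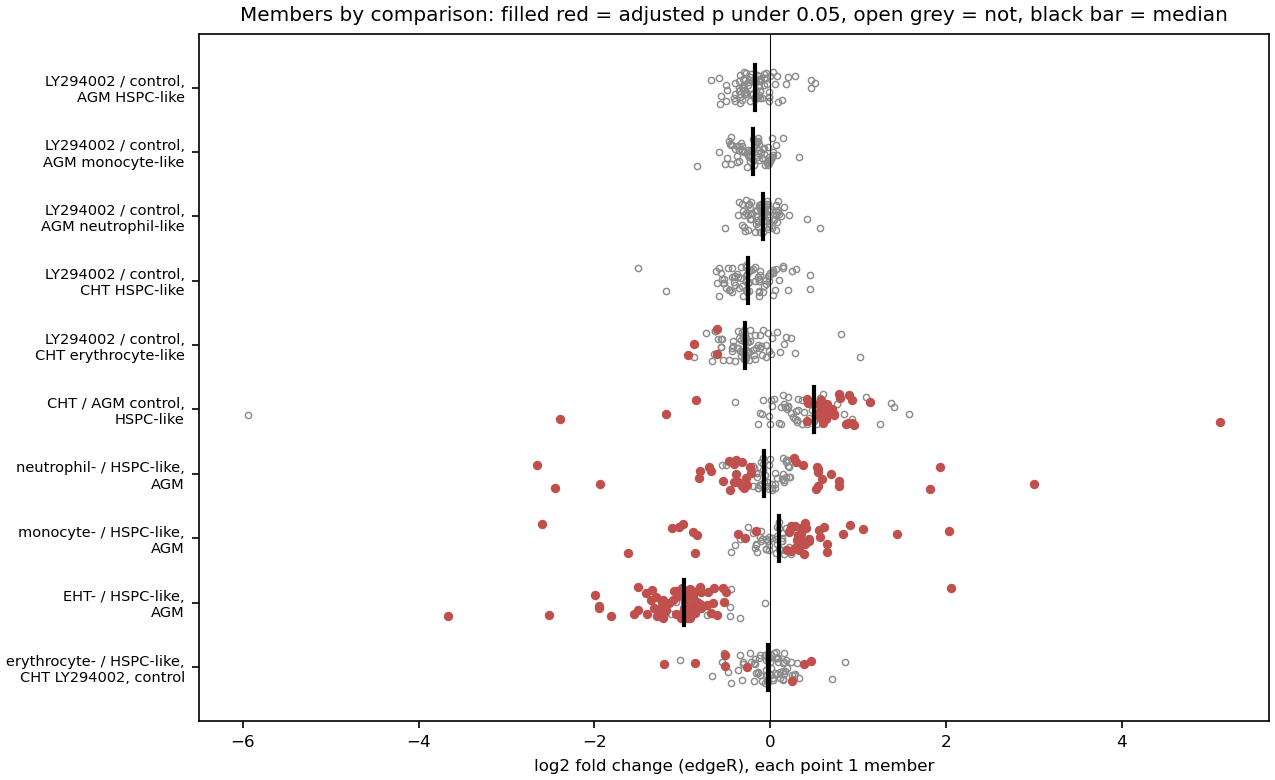
Log2 fold change (x axis, edgeR) of the members tested in 10 comparisons (rows); each point is a member, filled red where its adjusted p was under 0.05 and open grey otherwise, and black bars are medians. Most members lie below 0 in the comparisons of LY294002 with control (68 of 80 in AGM HSPC-like cells, 67 of 77 in CHT erythrocyte-like cells), and 73 of 83 lie above 0 in CHT against AGM control HSPC-like cells.

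With LY294002 in the CHT, HSPC-like cells held 1.340 and 1.511% of UMIs in the members on V1 and V2, against 1.997 and 1.886% on W1 and W2. The groups did not overlap, and the difference was -0.516 points, or 73.42% of the control share. Complex III stood at 66.98% of its control share, complex V at 72.69%, complex I at 73.53%, complex IV at 77.14% and complex II at 82.91%. Of 75 members tested, edgeR called 0 with 16 at an unadjusted p under 0.05, DESeq2 called 0 with 2, and 0.976% of all genes were called (0.878% higher and 0.0976% lower). Groups of plates were apart in 1 higher and 53 lower members, against 13.0% and 35.6% of all genes. Without V2 the count was 8. The median log2 fold change was -0.25, against 0.02 over all genes tested, and with total UMIs as the scale both moved down, to -0.45 and -0.18. The member with the lowest p was uqcrq, at 261.2 and 313.1 CPM in treated plates and 505.7 and 481.2 CPM in control plates (-0.58, adjusted p = 0.215, edgeR). By contrast sdhb had 139.8 and 154.9 CPM in treated plates and 148.4 and 146 CPM in control plates.

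In erythrocyte-like cells of the same plates, 4 members fell and 0 rose of 77 tested, where 1.18% of all genes were called, 0.692% higher and 0.492% lower. Plates did not overlap in 2 higher and 63 lower members, against 12.9% and 39.1% of all genes. The share was 1.274 and 1.296% on V1 and V2, against 1.820 and 1.828% on W1 and W2, a difference of -0.539 points (70.45% of the control share). Each proton-pumping complex and the ATP synthase gave 1 call. The complex I subunit ndufb5 had 65.63 and 68.39 CPM in treated plates, against 139.3 and 145.5 CPM in control plates (log2 fold change -0.87, SE 0.173, adjusted p = 0.0384, edgeR). The complex III subunit uqcrq had 291.7 and 269.8 CPM, against 511.1 and 480.5 CPM in controls (-0.61, SE 0.129, adjusted p = 0.0472, edgeR).

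The complex IV gene cox7a3 had 58.34 and 84.55 CPM in treated plates, against 160.8 and 161.4 CPM in control plates (-0.93, SE 0.192, adjusted p = 0.0461, edgeR). The c-ring gene atp5g1 had 397.5 and 420.3 CPM, against 715.6 and 722.3 CPM in controls (-0.60, SE 0.123, adjusted p = 0.044, edgeR). All 4 genes were separated between the groups, and their adjusted p-values lay close to the threshold: ndufb5 and atp5g1 were lost without W2, and uqcrq without W1 or without W2. Other settings ended calls too: ndufb5 was lost with DESeq2, atp5g1 with muscle wells kept, cox7a3 without the top 2% of cells (adjusted p = 0.0528, edgeR), and uqcrq without the top 2% of cells, with muscle wells kept and without globins and mitochondrially encoded genes. The count of calls was 9 without V1 and 1 without W2. Cytochrome c (cycsb) fell with them, to 127.6 and 165.4 CPM in treated plates, against 305 and 283.3 CPM in controls (-0.78, adjusted p = 0.0469, edgeR). The myeloid-like class of the CHT entered no test. There, on V1, V2, W1 and W2, atp5g1 had 518.1, 325.5, 435 and 507.9 CPM, and ndufb5 had 67.6, 78.25, 89.98 and 102.3 CPM. In the same order, uqcrq had 390.2, 269.9, 406.3 and 448.4 CPM, and cox7a3 had 135.2, 135.9, 158 and 163.6 CPM.

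The median log2 fold change in these cells was -0.29 over the members tested, against 0.01 over all genes tested, and with total UMIs as the scale, which moved the median of all genes to -0.20, 23 members were lower and 0 higher. DESeq2 called 4, with cox7a3, uqcrq and atp5g1 among them and ndufb5 not. The mitochondrially encoded genes took 11.35 and 9.888% of UMIs on V1 and V2, against 9.146 and 8.491% on W1 and W2. Both AC024175 rows and 1 of 13 mt- genes were called higher. Muscle markers took 0.09189 and 0.00659% on V1 and V2, against 0.5854 and 0.122% on W1 and W2, and the part of these differences in the result was not tested.

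**Figure D5:**
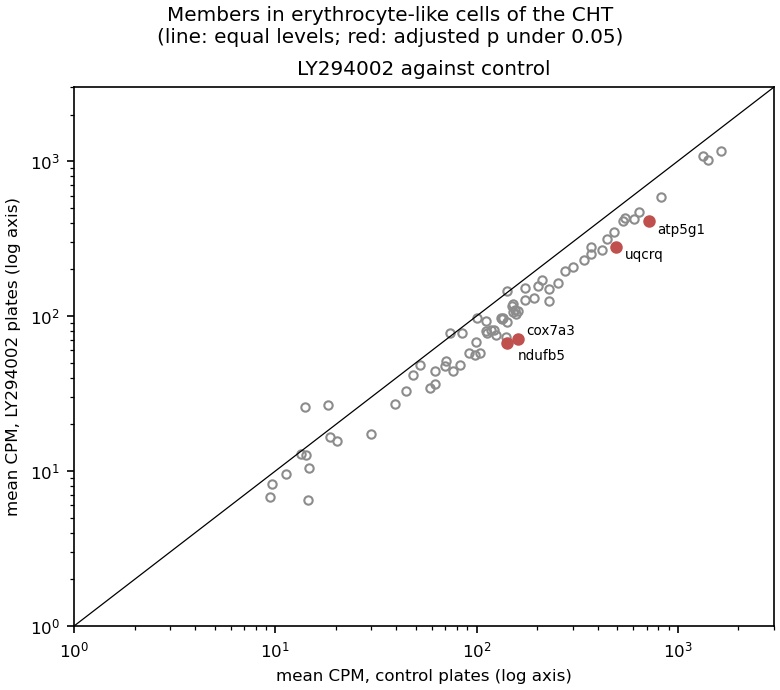
Mean CPM of each member tested in erythrocyte-like cells of the CHT, with the LY294002 plates on the y axis and the control plates on the x axis, both on log axes; red labelled points passed the test and the line marks equal levels. Most points lie below the line, and the 4 labelled genes, ndufb5, uqcrq, cox7a3 and atp5g1, all do.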

How the data were processed

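The deposited values are expected counts: UMI counts per gene and well that the authors corrected for UMI collisions, from reads aligned with BWA (version not given in the sources used here) to Zv9. Wells with at least 1500 UMIs were kept, spike-ins were left out of totals, and cells were clustered by k-medoids on 1 minus Pearson's correlation. The clustering used variable genes, without the members, the mitochondrially encoded genes and tmed1b. An alternative allowed these into the clustering where they were variable. Expected counts were summed per plate and class (at least 20 cells), rounded, and tested with edgeR 4.0.16 in R 4.3.3 (filterByExpr, TMM, quasi-likelihood, Benjamini-Hochberg adjustment over all genes, threshold 0.05). Comparisons of classes had the plate as a block, and comparisons of LY294002 with control in the AGM had the sort period (days 1 to 4 or 10 to 12) as a term. Comparisons within 4 of the CHT plates are not reported here. DESeq2 1.42.0 was an alternative, as were other filters, scales and clusterings and leaving out each plate. The tests were checked on simulated data. No doublet caller was run.

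The members and lists were chosen with earlier results of these data known. Named were the 12 highest members, the highest of each complex, the paralogues, and per comparison up to 5 members in each direction with the largest fold change among those called without overlap, and up to 3 genes of each other list. Other genes, such as uqcrc2a and the complex II genes in monocyte-like cells, were named after their values were seen. The muscle-marker limit, the limit for naming clusters and total UMIs as the scale were chosen after seeing the data.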

Additional observations from a re-analysis of the deposited data

Results flagged for a closer look

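In 33 groups of 4 or more plates tested for a plate far from the others, 3 values stood apart, and chance alone flags about 1 in 20 groups. In all cells of the AGM controls, plate C1 had a members' share of 1.427%, below the other control plates. In HSPC-like cells of the AGM, L2 had a share of 1.652%, above the other LY294002 plates, and C4 had 520.9 CPM of atp5o, apart from the other control plates.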

How the results depend on the processing

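Of the summary results under alternatives, 319 values stayed close to the reported one, 38 moved and 2 reversed. A share counted as close where it shifted by less than its SD over plates, and a count where it stayed within a fixed factor. Leaving out a single plate cannot shift a share by that SD. The share runs without a plate therefore had to count as close and check nothing. Among named genes 252 kept their call, 21 lost it and 0 changed sign. Of the runs that left out a plate, the count for named genes took only those with the lowest and highest fold change of each gene. For these named genes, all calls lost without a plate are given above. The cause of these changes was not tested. Leaving out sort days, the LY294002 difference in AGM HSPC-like share was -0.1695 or -0.3588 points. With the members allowed into the clustering it was -0.1712 in monocyte-like cells. In all CHT cells the LY294002 difference was -0.4355 with at least 3000 UMIs and -0.4515 without the top 2% of cells. It was -0.4585 without globins and -0.417 as a mean over cells. In CHT erythrocyte-like cells it was -0.5605 with at least 3000 UMIs and -0.559 with the members allowed into the clustering. There it was -0.5625 without mitochondrially encoded genes and -0.577 as a mean over cells. CHT minus AGM was 0.024 with at least 3000 UMIs, 0.2158 with 7 clusters, 0.2715 without mitochondrially encoded genes and -0.0315 as a mean over cells. Erythrocyte-like minus HSPC-like on LY294002 and control plates was -0.219 with 7 clusters, -0.2302 without mitochondrially encoded genes, -0.02175 without globins and 0.01925 as a mean over cells.

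Counts of members called were, for LY294002 in AGM HSPC-like cells, 1 with DESeq2 and 2 with no filter; in CHT HSPC-like cells 0 to 8 without 1 plate; in CHT erythrocyte-like cells 7 with no filter, 7 with at least 3000 UMIs, 23 with total UMIs, 2 with muscle wells kept and 1 to 9 without 1 plate. For CHT against AGM they were 20 with DESeq2, 10 with no filter, 9 with total UMIs and 4 to 31 without 1 plate, and for neutrophil-like cells 73 with total UMIs. For erythrocyte-like against HSPC-like cells they were 1 with DESeq2, 5 with at least 3000 UMIs, 13 with total UMIs and 3 to 7 without 1 plate on LY294002 and control plates. Without the replicate block for the plate, the count was 3 on LY294002 and control plates, 36 for neutrophil-like, 35 for monocyte-like and 64 for EHT-like cells. No paired analysis was possible because the labels give treatments and tissues no shared replicate numbers. With the members allowed into the clustering, no value could be had for the LY294002 difference in AGM HSPC-like share or for EHT-like minus HSPC-like. The same held for the LY294002 difference in CHT HSPC-like share with 7 clusters. A value needed a plate of each group, or a plate with both classes, with at least 20 cells of each class compared. These shares were therefore not checked under those clusterings. Depth limits the size of differences in genes near 0, such as cox7a1, with 5 UMIs in HSPC-like cells of the AGM controls.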
